A study of Mus musculus with 3 samples.

Results

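Class I phosphoinositide 3-kinases (PI3Ks) were examined here through the genes of their catalytic and regulatory subunits in mast cell progenitors (MCps) with and without p85α. Every non-control probe of the array whose gene name was Pik3ca, Pik3cb, Pik3cd, Pik3cg, Pik3r1, Pik3r2, Pik3r3 or Pik3r5 was taken, which gave 18 probes for 8 genes out of 41174 probes in all. The rule uses gene names and no measured value, though the 8 genes were chosen with earlier results of these data known. All 18 probes were tested, and each had a single spot on the array.

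The cells came from low density mononuclear cells (LDMNC) of the bone marrow of 3 WT and 3 p85α-/- mice, whose strain and age are not given in the sources used here. Cells of both genotypes were grown for 7 days in IL-3 at 10 ng/mL, sorted for double expression of KIT, the receptor of stem cell factor (SCF), and the IgE receptor, and then given SCF at 100 ng/mL for 48 hours. There was thus no unstimulated arm, and every difference below is one between genotypes in SCF. Each of the 3 arrays carried 1 WT culture in Cy3 and 1 p85α-/- culture in Cy5, so that n = 3 cultures per genotype. As the dyes were never swapped, an effect of the dye and an effect of the genotype cannot be told apart. Few cells were sorted, and the cDNA was amplified by a global PCR protocol before 250 ng of it was labeled.

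Class I PI3Ks phosphorylate the membrane lipid phosphatidylinositol bisphosphate to the trisphosphate, which docks kinases such as AKT, PDK1 and BTK at the membrane. Class IA enzymes pair a catalytic p110α, p110β or p110δ (Pik3ca, Pik3cb and Pik3cd) with a regulatory subunit from Pik3r1 (p85α, p55α, p50α), Pik3r2 (p85β) or Pik3r3 (p55γ), and their SH2 domains bring the pair to phosphorylated receptors such as KIT. The class IB enzyme joins p110γ (Pik3cg) to p101 (Pik3r5) or p84 (Pik3r6) and is driven by G protein-coupled receptors. Regulatory subunits also keep class IA catalytic subunits stable and in check.

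Pik3r1 makes the long p85α and the short p55α and p50α forms from separate starts. The windows of 250 bases before its starts in RefSeq (GRCm38.p6) are shown here. They do not tell which form a probe reads, and neither does the annotation of the probes, as given below. Capitals mark GGGCGG or TATAAA on either strand, and both starts lie on the minus strand.
Pik3r1, upstream start, chr13:101768218-101768467: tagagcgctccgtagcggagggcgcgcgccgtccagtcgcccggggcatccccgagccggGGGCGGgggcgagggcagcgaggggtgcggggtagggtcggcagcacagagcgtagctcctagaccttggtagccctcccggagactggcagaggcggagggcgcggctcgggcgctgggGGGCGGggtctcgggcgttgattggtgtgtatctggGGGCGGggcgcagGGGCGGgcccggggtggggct
Pik3r1, internal start, chr13:101692631-101692880: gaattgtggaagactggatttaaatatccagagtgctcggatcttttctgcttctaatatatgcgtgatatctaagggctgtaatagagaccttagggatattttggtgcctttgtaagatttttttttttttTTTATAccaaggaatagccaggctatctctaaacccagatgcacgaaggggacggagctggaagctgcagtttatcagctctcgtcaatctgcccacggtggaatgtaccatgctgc
The upstream window held 4 copies of GGGCGG and no TATAAA, with 76.4% G and C. The internal window held no GGGCGG and 1 TATAAA, read on the other strand as TTTATA within a run of T, with 42.4% G and C. Of 32851 windows of this length, 32.7% held GGGCGG and 12.4% held TATAAA. Among the 14 windows of the 8 genes, 10 held GGGCGG, in 7 genes, and the internal window of Pik3r1 was the 1 window with TATAAA. These are matches of letters and not sites of binding.

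Values below are normalized log2 intensities of single cultures, or log2 ratios of p85α-/- over WT within an array. Intensities of different probes depend on the probe as well as on the RNA, so levels of different probes were not compared as amounts of RNA, and the brightest probe of a gene is the one with the highest mean intensity. Median signals were 71.5 to 141 in the WT channels and 207 to 517 in the p85α-/- channels, over background medians of 32.5 to 33.5 and of 51, and 69.4% to 93.8% of spots were well above background. No spot was saturated. Over all probes the log2 ratios of one array were nearly unrelated to those of another, with Pearson's r of 0.01, 0.17 and -0.03 for the 3 pairs of arrays, across probes that are not independent replicates. Over the 18 class I PI3K probes r was 0.27, 0.76 and 0.32 for the same pairs. The 0.76 belongs to arrays 1 and 3. On both, the highest ratios were those of Pik3ca A_52_P577116 (3.04 and 2.85) and Pik3cd A_52_P99848 (2.41 and 3.55). Values of r without these probes were not computed. In these bulk samples, fewer cells of a type and less RNA per cell cannot be told apart.

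Of the 18 class I PI3K probes, 1 passed a 1.5-fold difference with an unadjusted p under 0.05, the brighter Pik3ca probe, which was higher in p85α-/- MCps. Among all 41157 probes tested, 4.44% passed, 2.78% higher and 1.66% lower, so that the share of the members, 1 of 18, stood near the background. After Benjamini-Hochberg adjustment of limma's test over all probes, 0 members and 0 of all 41157 probes passed 0.05, against 1 member and 1829 probes at an unadjusted p under 0.05. The median log2 ratio of the members was -0.04 and that of all probes -0.05. The calls over all probes were 62.6% higher ones, and 91.4% with median centring in place of quantile normalization, where the median over all probes was 0.09.

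Means were above 0 for 7 members and below 0 for 11. The sign was the same on all 3 arrays for 9 members, 2 higher and 7 lower, while 25.8% of all probes had the same sign, 12.5% higher and 13.3% lower. The 3 cultures of one genotype did not overlap with those of the other for 6 members, 1 with p85α-/- above WT and 5 with p85α-/- below WT, and for 10.5% of all probes, 4.54% above and 5.94% below. Probes of one gene are counted separately here. Among those lower on all 3 arrays were the Pik3r3 probes A_52_P586443, A_52_P607103 and A_52_P586441, all near background. Of these, A_52_P586443 and A_52_P607103 also lay below WT without overlap. The SD of the ratio over arrays ran from 0.07 to 2.64 with a median of 0.46, and 10 of the 18 means were smaller than their SD. On the 3 arrays, 7, 5 and 8 of the 18 ratios were above 0.

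**Figure D1:**
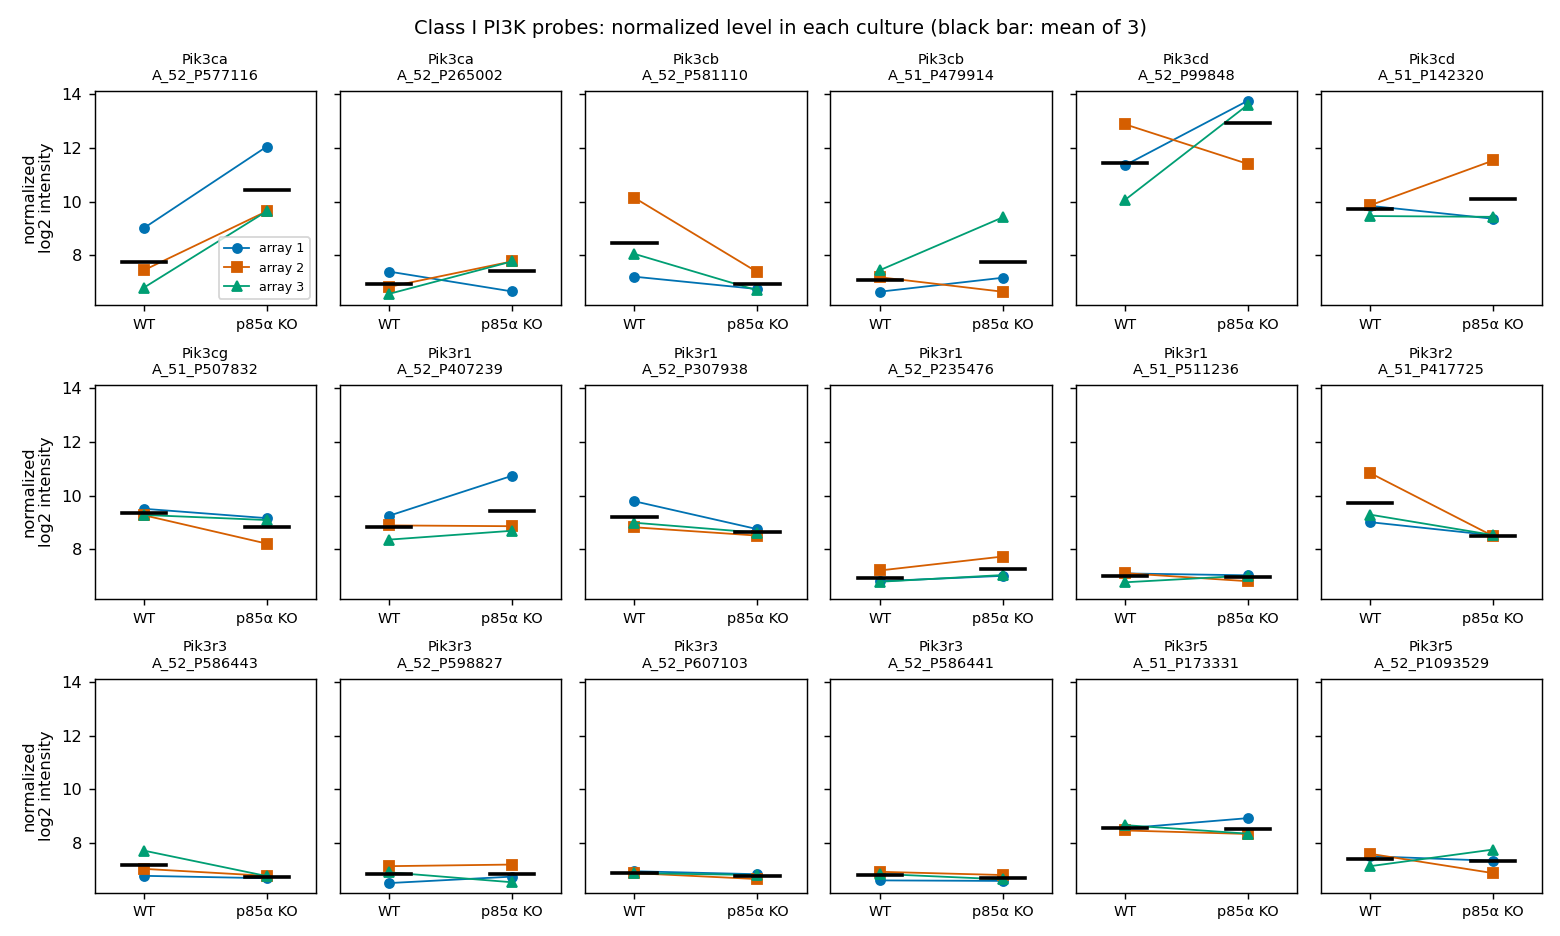
Normalized log2 intensity of each of the 18 class I PI3K probes in the WT and p85α KO culture of each array (lines join the pair on 1 array, black bars are means of 3). The brighter Pik3ca probe is higher in all 3 KO cultures than in any WT culture, and the 3 KO values of Pik3r2 lie between 8.49 and 8.53 under all WT values.

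Pik3r1, the gene that was disrupted in the p85α-/- mice, had 4 probes, and all 4 were well above background in the 3 p85α-/- cultures. Their mean ratios had different signs. The brightest, A_52_P407239 (NM_011085, chr13:98794799-98794858, minus strand), had 9.25, 8.89 and 8.36 in WT and 10.74, 8.86 and 8.69 in p85α-/- MCps. The higher mean in p85α-/- MCps came mostly from replicate 1, and the groups overlapped. The log2 ratio was 0.59 ± 0.79 (SD, n = 3, limma adjusted p = 0.908), with a 95% interval from -0.56 to 1.75, and it was 0.15 without replicate 1 and 1.35 with median centring, neither of which passed.

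Probe A_52_P307938 (NM_011085, chr13:98797997-98799039, minus strand) covers the most 5′ position of the 4, and its annotated position spans 1043 bases. It read 9.79, 8.82 and 8.99 in WT and 8.75, 8.51 and 8.62 in p85α-/- MCps. All 3 p85α-/- values lay under the lowest WT value. The log2 ratio was -0.58 ± 0.41 (SD, n = 3, limma adjusted p = 0.908, 95% interval -1.39 to 0.24), it was -0.34 without replicate 1, and the direction turned with median centring, to 0.06.

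The remaining Pik3r1 probes were dim. For A_51_P511236 (NM_011085, chr13:98792997-98793056, minus strand), WT had 7.10, 7.11 and 6.77 and p85α-/- had 7.03, 6.81 and 7.02, a log2 ratio of -0.04 ± 0.27 (SD, n = 3). The groups overlapped and the interval from -0.77 to 0.69 spanned both directions. Probe A_52_P235476 (NM_001024955, chr13:98790149-98790208, minus strand), the most 3′ of the 4, had 6.81, 7.21 and 6.79 in WT and 7.01, 7.73 and 7.04 in p85α-/- MCps. It was higher on all 3 arrays by 0.32 ± 0.18 (SD, n = 3, limma adjusted p = 0.908, 95% interval -0.36 to 1.01), with groups that overlapped.

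Along the gene, the probes lie at 0, 4.18, 5.98 and 8.83 kb from the most 5′ one, in the order A_52_P307938, A_52_P407239, A_51_P511236 and A_52_P235476. Means of the log2 ratio in that order were -0.58, 0.59, -0.04 and 0.32, and did not run in 1 direction. Every one of the 4 probes carries both RefSeq transcripts of the gene in its annotation, NM_011085 and NM_001024955, whichever of them names it. Which of p85α, p55α and p50α a probe reads could therefore not be told from the annotation. Which exons the p85α allele lacks is not given in the sources used here, so these values do not check the genotype either.

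**Figure D2:**
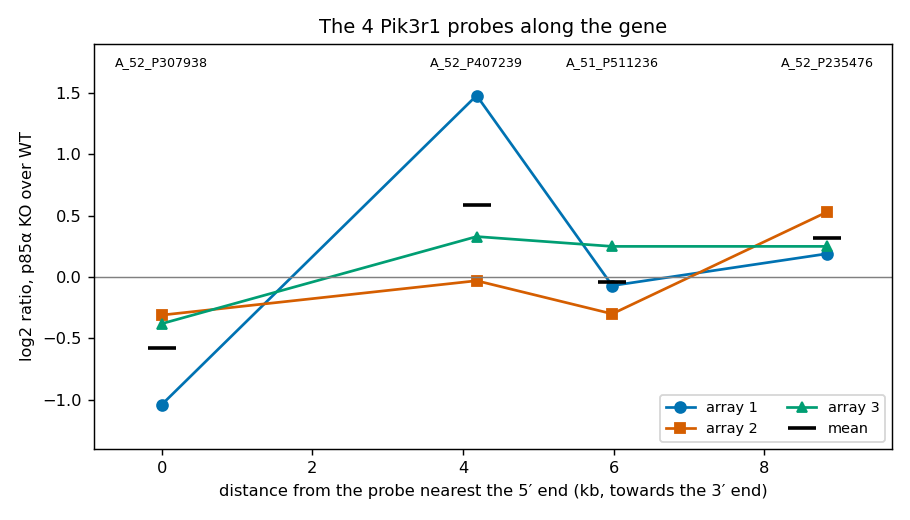
Log2 ratio of p85α KO over WT at the 4 Pik3r1 probes on each array, against the distance from the most 5′ probe in kb (black bars are means of 3 arrays). The most 5′ probe is below 0 on all 3 arrays and the most 3′ probe above 0 on all 3.

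The difference between the first 2 of these probes was compared within each array. A_52_P407239 exceeded A_52_P307938 by 2.53, 0.28 and 0.70 on the log2 ratio scale, a mean of 1.17 ± 1.19 (SD, n = 3, exact two-sided sign-flip permutation p = 0.25). A_52_P307938 was under A_52_P235476 on each array, by -1.24, -0.84 and -0.62, a mean of -0.90 ± 0.31 (SD, n = 3, exact permutation p = 0.25). With 3 arrays, 0.25 is the smallest p this test can give. Of 16 such pairs of probes of one gene, 9 had a difference of 1 sign on all arrays, each at that smallest p, or 0.444 after Benjamini-Hochberg adjustment over the 16.

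The pattern most like that of the brightest Pik3r1 probe over the 6 channels was that of Chd1l (Pearson's r = 0.9947), then Wbscr18 (0.9946) and Sh2b3 (0.9937), each by its brightest probe. The 6 channels come in pairs from 3 arrays. Of 19508 genes compared, 464 (2.38%) had r over 0.9, so that such values were not particular to the genes named.

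Pik3r2 encodes p85β, the other long class IA regulatory subunit. Its single probe, A_51_P417725 (NM_008841, chr8:69222321-69222380, minus strand), had 9.01, 10.84 and 9.29 in WT and 8.52, 8.49 and 8.53 in p85α-/- MCps. After normalization the p85α-/- cultures were nearly identical, with a mean of 8.51 and an SD of 0.02, whereas WT varied, with a mean of 9.71 and an SD of 0.98. Before it, the background-subtracted signals were 170, 782 and 426 in WT and 408, 835 and 406 in p85α-/- MCps. The near identity and the lower values on arrays 1 and 2 were thus seen in normalized values. All p85α-/- values lay below all WT values, and the ratio was -0.50, -2.35 and -0.76 on the 3 arrays. The mean of -1.20 ± 1.0 (SD, n = 3) did not pass (limma adjusted p = 0.908, 95% interval -2.58 to 0.17), and was -0.63 without replicate 2 and -0.68 with median centring. It was below 0 under every alternative that was run.

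Pik3r3 encodes p55γ and was barely above background. Its 4 probes were each well above background in 1 WT and 1 p85α-/- culture, WT replicate 3 and p85α-/- replicate 2. In each genotype these were the channels with the most spots above background over the whole array, 85.3% and 93.8%, and the normalized levels of Pik3r3 in p85α-/- replicate 2, 6.66 to 7.2, were close to those of the other cultures. The brightest, A_52_P586443 (NM_181585, chr4:115676803-115676862, plus strand), had 6.78, 7.04 and 7.72 in WT and 6.69, 6.78 and 6.77 in p85α-/- MCps. Only WT replicate 3 stood out, although the p85α-/- values all lay just under the lowest WT value, and the log2 ratio was -0.43 ± 0.45 (SD, n = 3, limma adjusted p = 0.908, 95% interval -1.28 to 0.41), or -0.18 without replicate 3 and -1.66 with the processed signals. A_52_P607103 (NM_181585, chr4:115679133-115679192, plus strand) had a log2 ratio of -0.13 ± 0.07 and A_52_P586441 (NM_181585, chr4:115676980-115677039, plus strand) one of -0.11 ± 0.09 (SD, n = 3 each). Both were lower on all 3 arrays, by amounts that are small beside their intervals of -0.79 to 0.53 and -0.77 to 0.55, and A_52_P607103 turned to 0.03 with the processed signals. A_52_P598827, which is annotated with the cDNA AK036105 and no RefSeq transcript (chr4:115601463-115601522, plus strand), had 0.24, 0.05 and -0.37, a mean of -0.03 ± 0.31 (SD, n = 3) that turned to 0.17 without background subtraction and to 0.15 without replicate 3. The outermost Pik3r3 probes lie 77.67 kb apart.

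Pik3r5, for the p101 partner of p110γ, was well above background in all cultures. Probe A_51_P173331 (NM_177320, chr11:68575830-68576067, plus strand) had 8.55, 8.47 and 8.67 in WT and 8.93, 8.34 and 8.35 in p85α-/- MCps. These values overlapped, with a log2 ratio of -0.02 ± 0.37 (SD, n = 3, 95% interval -0.81 to 0.76). A_52_P1093529 (NM_177320, chr11:68578978-68579035, plus strand), 3.15 kb further 3′, had 7.51, 7.60 and 7.14 in WT and 7.34, 6.88 and 7.76 in p85α-/- MCps, a log2 ratio of -0.09 ± 0.67 (SD, n = 3, 95% interval -1.14 to 0.95). The direction of both turned under other processing, as it also did for Pik3r1 A_51_P511236.

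Among the catalytic subunits, Pik3ca (p110α) gave the highest mean ratio of all members. Probe A_52_P577116 (chr3:32273117-32273176, plus strand) had 9.02, 7.45 and 6.80 in WT and 12.06, 9.65 and 9.65 in p85α-/- MCps. Every p85α-/- culture was above every WT culture. The ratios were 3.04, 2.20 and 2.85, a mean of 2.70 ± 0.44 (SD, n = 3, limma adjusted p = 0.763, 95% interval 1.85 to 3.54). No probe had a lower adjusted p, but others shared this value, among them the Btk probe. Before normalization the background-subtracted signals were 170, 23.9 and 16.4 in WT and 12200, 1720 and 1220 in p85α-/- MCps. Dropping 1 array at a time gave means from 2.53 to 2.95, and other processing gave up to 3.62 (median centring) and 4.23 (processed signals or the software's log ratio). By the methods' t-test without pairing, it did not pass (unadjusted p = 0.0602).

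This probe is named by AK029399, a RIKEN cDNA, and no RefSeq transcript stands in its annotation. The Pik3ca probe that carries the RefSeq transcript, A_52_P265002 (NM_008839, chr3:32270475-32270534, plus strand), lies 2.64 kb upstream. It had 7.40, 6.83 and 6.57 in WT and 6.66, 7.78 and 7.78 in p85α-/- MCps. Its values overlapped, were well above background in 1 WT and 2 p85α-/- cultures, and gave ratios of -0.74, 0.96 and 1.20, a mean of 0.47 ± 1.06 (SD, n = 3, limma adjusted p = 0.910, 95% interval -0.97 to 1.91), which was 1.08, 0.23 and 0.11 without replicates 1, 2 and 3 in turn. Within arrays, the AK029399 probe exceeded the NM_008839 probe by 3.79, 1.24 and 1.65, a mean of 2.23 ± 1.37 (SD, n = 3, exact permutation p = 0.25). The higher signal of Pik3ca was measured by the probe without a RefSeq transcript, and the difference at the NM_008839 probe was smaller than its spread. As the NM_008839 probe was near background in several cultures, it cannot show whether the difference is confined to the other probe.

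**Figure D3:**
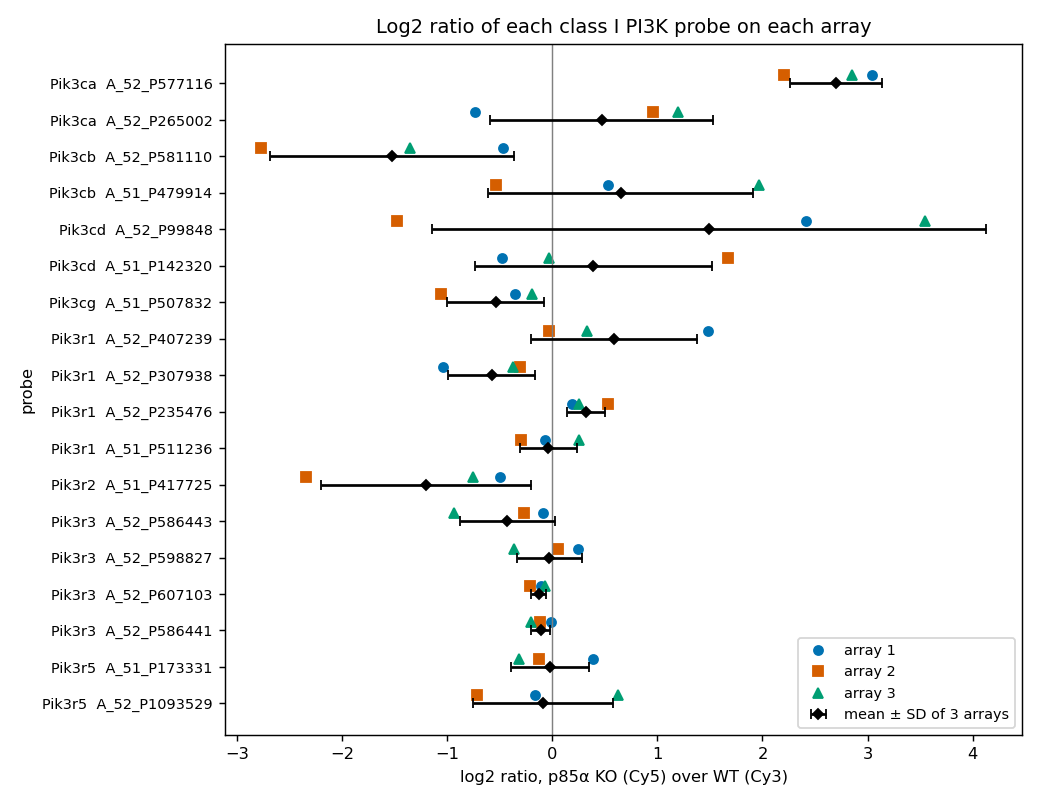
Log2 ratio of p85α KO (Cy5) over WT (Cy3) of each class I PI3K probe on each array, with the mean and SD of 3 arrays in black. The Pik3ca probe A_52_P577116 sits between 2.20 and 3.04, while the Pik3cd probe A_52_P99848 runs from -1.48 to 3.55.

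Pik3cb (p110β) had probes with mean ratios of opposite sign, each partly at background. A_52_P581110 (NM_029094, chr9:98731805-98731864, minus strand) had 7.21, 10.15 and 8.06 in WT and 6.75, 7.38 and 6.70 in p85α-/- MCps. It was lower on all 3 arrays, though the highest p85α-/- value exceeded the lowest WT value, and only 1 of the p85α-/- cultures was well above background against 3 of WT. The log2 ratio was -1.53 ± 1.16 (SD, n = 3, limma adjusted p = 0.908, 95% interval -3.08 to 0.02). It passed 1.5-fold and an unadjusted p under 0.05 in 5 of the other ways to process the arrays and without replicate 1 (-2.06). The ratio was -3.21 with the processed signals or the software's log ratio, and -0.91 without replicate 2.

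The other Pik3cb probe, A_51_P479914 (NM_029094, chr9:98680282-98680341, minus strand), lies 51.52 kb further 3′ on the genome. It had 6.65, 7.19 and 7.45 in WT and 7.17, 6.65 and 9.42 in p85α-/- MCps. It was well above background in 1 WT culture and 3 p85α-/- cultures. Only p85α-/- replicate 3 stood out, and the log2 ratio was 0.65 ± 1.26 (SD, n = 3, limma adjusted p = 0.908, 95% interval -1.0 to 2.31), or 1.25 without replicate 2 and -0.0067 without replicate 3. The first probe was below the second on each array, by -0.99, -2.23 and -3.33, a mean of -2.18 ± 1.17 (SD, n = 3, exact permutation p = 0.25), although both are annotated with NM_029094.

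Pik3cd encodes p110δ, the catalytic subunit known for its role in KIT and IgE receptor signaling of mast cells. Probe A_52_P99848 (NM_008840, chr4:148638715-148638774, minus strand) had 11.36, 12.89 and 10.07 in WT and 13.77, 11.41 and 13.62 in p85α-/- MCps. Replicates 1 and 3 were higher in p85α-/- MCps and replicate 2 was lower. The ratios of 2.41, -1.48 and 3.55 gave a mean of 1.49 ± 2.64 (SD, n = 3, limma adjusted p = 0.908, 95% interval -1.76 to 4.75), which was 1.03 without replicate 1, 0.46 without replicate 3 and 2.98 without replicate 2, where alone it passed 1.5-fold and an unadjusted p under 0.05. Of 9 neutrophil markers, 5 had the same order of arrays (replicate 3 highest, then 1, then 2), such as Elane (neutrophil elastase) with log2 ratios of 3.54, -1.77 and 4.90, an order that 19.3% of all probes had, and 4 had another order, such as Ctsg (cathepsin G) with 1.67, 2.44 and 1.47. The order was not particular to neutrophil markers. Hdc, a mast cell marker, had it with 0.20, -1.68 and 4.34, and Prss34, a basophil marker, with 1.89, -4.33 and 2.01. Cpa3, also a mast cell marker, had another order, with 0.39, 4.37 and 0.01. What part such markers have in the Pik3cd result was not tested.

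The other Pik3cd probe, A_51_P142320 (U86587, with no RefSeq transcript, chr4:148644104-148644361, minus strand), is 5.39 kb from the first. It had 9.85, 9.87 and 9.47 in WT and 9.37, 11.54 and 9.44 in p85α-/- MCps. Here replicate 2 was the one that was higher, opposite to the first probe, with a log2 ratio of 0.39 ± 1.13 (SD, n = 3, limma adjusted p = 0.926, 95% interval -1.13 to 1.91), or 0.82 without replicate 1 and -0.25 without replicate 2. The 2 probes differed by 2.89, -3.16 and 3.58, with no common sign (exact permutation p = 0.75).

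Pik3cg encodes p110γ, the class IB catalytic subunit. A_51_P507832 (NM_020272, chr12:30015588-30015647, minus strand) had 9.51, 9.27 and 9.28 in WT and 9.16, 8.21 and 9.09 in p85α-/- MCps. All p85α-/- values lay under all WT values, by a log2 ratio of -0.54 ± 0.46 (SD, n = 3, limma adjusted p = 0.908, 95% interval -1.39 to 0.32). The mean was -0.27 without replicate 2, and with median centring the direction turned, to 0.15.

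**Figure D4:**
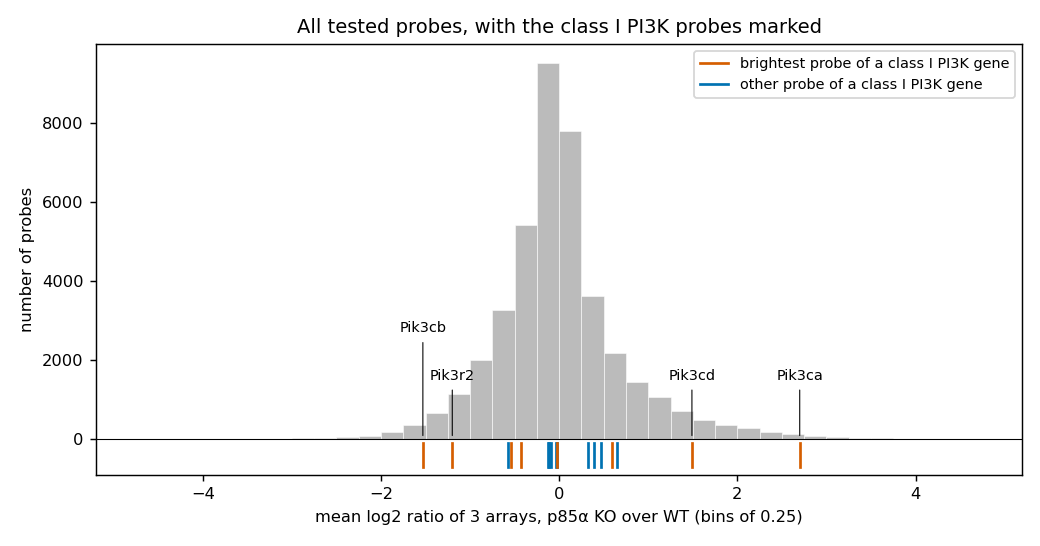
Number of tested probes by mean log2 ratio of 3 arrays (bins of 0.25), with the 18 class I PI3K probes as ticks under the axis, the brightest of each gene in orange. Pik3ca at 2.70 lies far to the right, and most members lie near the middle of the distribution.

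Taking the brightest probe of each gene, 1 of the 8 class I genes (12.5%) passed, against 5.21% of all 27951 gene names (3.14% higher and 2.08% lower), and the median was -0.23 against -0.07. Averaged over its probes, Pik3ca had 1.59 in place of 2.70, Pik3cb -0.44 in place of -1.53, Pik3cd 0.94 in place of 1.49 and Pik3r1 0.07 in place of 0.59.

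Other PI3K subunits and binding proteins were read from a separate list of 8 genes, of which 0 passed, against 5.21% of all gene names. Of these, 2 had a mean above 0 and 6 below, with a median of -0.26, where 43% of all gene names were above 0. Pik3r6, for the p84 partner of p110γ, was found through its accession and had ratios of 1.67, -0.37 and -1.17, a mean of 0.04 ± 1.47 (SD, n = 3, limma adjusted p = 0.996). Pik3ap1, for the adaptor BCAP, had -0.34 ± 1.09 (SD, n = 3, limma adjusted p = 0.933). Pik3r4, the regulatory subunit of the class III enzyme, was not well above background in any culture.

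Of 16 receptors and adaptors that recruit class I PI3K, 15 were found, and 1 was higher and 1 lower (13.3%, against 5.21% of all gene names), with 4 means above 0, 11 below and a median of -0.12. Kit, for the SCF receptor by which the cells were sorted, had ratios of 1.45, 2.19 and 2.54, a mean of 2.06 ± 0.56 (SD, n = 3, limma adjusted p = 0.784). Rras, a RAS-like GTPase, had -1.48, -0.70 and -2.10, a mean of -1.42 ± 0.70 (SD, n = 3, limma adjusted p = 0.908).

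Of 19 readers and phosphatases of PI3K lipids, 18 were found, with 2 higher and 1 lower (16.7%, against 5.21% of all gene names), 10 means above 0, 8 below and a median of 0.07. Btk, a kinase with a PH domain for the trisphosphate, had 2.72, 3.84 and 2.31, a mean of 2.95 ± 0.79 (SD, n = 3, limma adjusted p = 0.763). Dapp1, an adaptor with such a domain, had 1.60, 1.83 and 0.52, a mean of 1.32 ± 0.70 (SD, n = 3, limma adjusted p = 0.908). Pdpk1, for PDK1, the kinase that activates AKT, had -1.58, -0.33 and -1.30, a mean of -1.07 ± 0.66 (SD, n = 3, limma adjusted p = 0.908), while its other 2 probes had means of 0.61 and 0.27.

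The label of the cells was checked against markers. Of 16 mast cell markers, 15 or 16 were well above background in each channel, and their mean level was 10.38 to 11.14 in the WT and 11.70 to 12.01 in the p85α-/- cultures. The mast cell markers had 15 of 16 means above 0 and a median log2 ratio of 1.47, and 5 passed, all higher, where 43% of all gene names had a mean above 0 and 3.14% passed higher. Of 9 neutrophil markers, 8 or 9 were well above background in each channel, with a mean level of 8.73 to 9.45 in WT and 8.50 to 11.45 in p85α-/- MCps, lowest in p85α-/- replicate 2, and 3 of them passed, all higher. Macrophage, basophil, eosinophil, erythroid and lymphoid markers had 0 that passed, though nearly all were well above background too, and this flag alone did not separate the cell types. Whether these shifts have a part in the Pik3ca, Kit and Btk values was not tested.

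**Figure D5:**
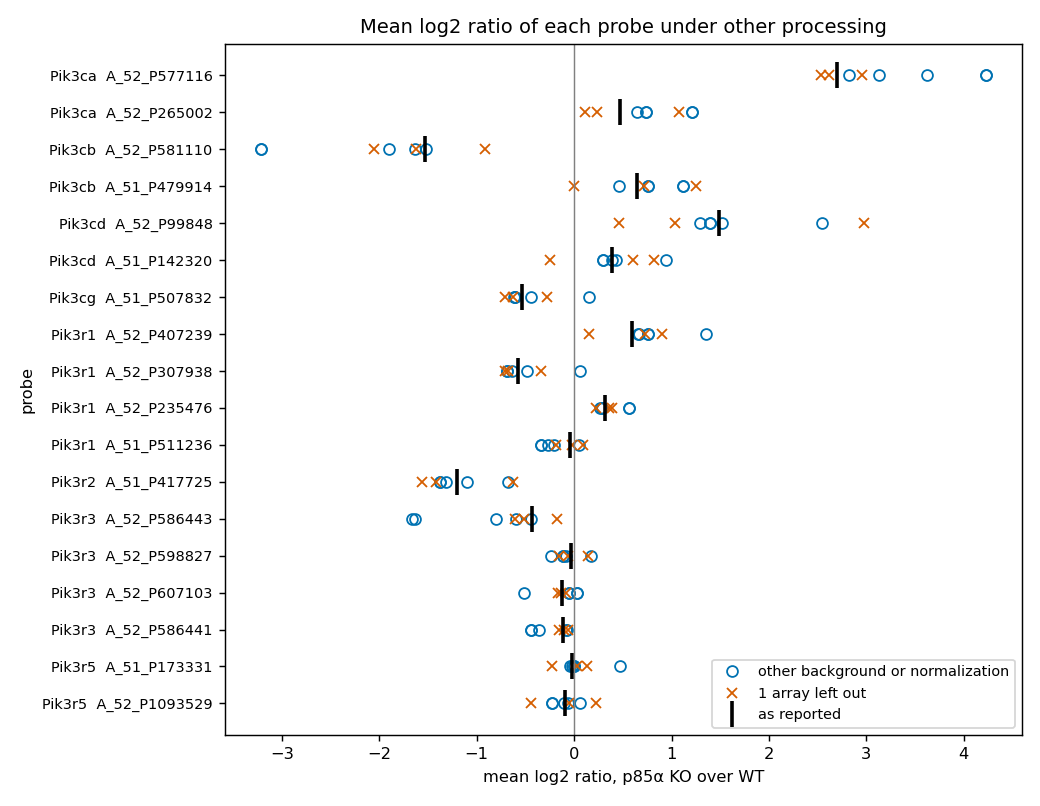
Mean log2 ratio of each class I PI3K probe as reported (black bar), under other background correction or normalization (open circles) and with 1 array left out (crosses). Pik3ca A_52_P577116 and Pik3r2 keep their side of 0 throughout, while Pik3r5 A_51_P173331 lies on both sides.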

How the data were processed

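Expression was measured in 3 WT and 3 p85α-/- MCp cultures on 3 two-colour Agilent arrays on 1 slide. The authors deposited scanner files of Agilent Feature Extraction 9.5.1.1, which hold the intensity of every spot and of its background, intensities processed by that software, and its flags for outliers and for signal well above background. A log10 ratio of Cy5 over Cy3 per spot was deposited with them, and so was a table of log10 ratios for each array. That table equals the scanner's log10 ratio on 40929, 190 and 226 of 40929 single-spot probes (tolerance 1.5e-05) for replicates 1, 2 and 3, with column medians of 0, 0.0245 and -0.00306, so it was not used. Its scale and direction are those of the scanner on replicate 1, and how its values relate to those of the scanner on the others is unknown. The methods state quantile normalization across chips and a t-test at 1.5-fold.

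Mean signals were corrected with normexp (offset 50) and the 6 channels quantile normalized as log2 values (limma 3.58.1 under R 4.3.3). Then control spots and outlier spots were left out and spots of a probe averaged, which left 41157 of 41174 probes. The log2 ratio within each array, which pairs the cultures hybridized together, was fitted with an intercept and tested with limma (eBayes) and Benjamini-Hochberg adjustment over all probes. Intervals are limma's moderated 95% intervals. The test was also run on simulated independent normal values with known changes. That run does not show how well changes are found on these arrays. The number of arrays limits the precision.

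The 8 genes, the other gene lists and the markers were chosen with earlier results of these data known. All probes of the 8 genes are named. From the other lists, genes past 1.5-fold and an unadjusted p under 0.05 are named (at most 5 a list), and so in any case are Kit, Pik3r6 and Pik3ap1. Pik3r4 is named as well, though it falls outside this rule. The rule also takes 1 gene that is not reported here. Other genes were read by their brightest probe, and Elane, Ctsg, Hdc, Prss34 and Cpa3 were named after their values were seen. Names and positions of probes are taken from the annotation in the scanner files, whose build is not named, and an accession was found in RefSeq for 22943 tested probes (55.7%). No probe sequences were used here.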

Additional observations from a re-analysis of the deposited data

How the results depend on the processing

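No probe passed an adjusted p under 0.05 by limma or the methods' t-test in any setting, and the lowest adjusted p over all probes ran from 0.367 to 1. The number of class I PI3K probes that passed both criteria (1.5-fold, unadjusted p under 0.05), 1 as reported, was 2 with median centring, without background subtraction, with the processed signals, with the software's log ratio and with dim probes left out, the second being Pik3cb A_52_P581110 (-1.52, -1.90, -3.21, -3.21 and -1.53). It was 0 with the unpaired t-test and 1 to 2 with a replicate left out. Dim probes left out removed all 4 Pik3r3 probes and left 14 members. Over all probes 1829 passed as reported, 1125 and 819 with the unpaired and paired t-test (1755 and 1501 at an unadjusted p under 0.05) and 1557 to 3165 with a replicate left out, most without replicate 2, when 47.5% of them were higher. Without the pairing by array (no replicate block), 1 member and 1809 probes passed, and no call on a member changed.

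The number of receptors and adaptors past the criteria, 2 as reported, was 1 with median centring, the processed signals and the paired t-test, 4 with the mean over all probes, and 1 to 4 with a replicate left out (1 without replicate 1, 4 without replicate 2). That of readers and phosphatases, 3 as reported, was 1 with the processed signals and with either t-test, and 2 to 4 with a replicate left out. Pairs of probes whose difference had 1 sign on all arrays, 9 as reported, numbered 5 with the processed signals or the software's log ratio and 10 to 13 with a replicate left out. Members without overlap, 6 as reported, were 1 with the processed signals (7.36% of all probes, against 10.5%) and 8 to 10 with a replicate left out, when 30.6% to 39.4% of all probes did not overlap, with 10 members without replicate 1 or 2.

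Apart from leaving out a replicate, 5 settings could move the ratio of a probe, and under these 10 of 90 values of single probes changed sign. These were Pik3r1 A_51_P511236 (0.0501) and Pik3r5 A_52_P1093529 (0.0637) with loess and Aquantile normalization, Pik3cg (0.15), Pik3r1 A_52_P307938 (0.0608) and Pik3r5 A_51_P173331 (0.47) with median centring, Pik3r3 A_52_P598827 (0.17) without background subtraction, and Pik3r3 A_52_P607103 (0.0283) and Pik3r5 A_51_P173331 (0.00202) with both the processed signals and the software's log ratio. With a replicate left out, values ran from -0.25 to 0.82 for Pik3cd A_51_P142320, -0.187 to 0.0861 for Pik3r1 A_51_P511236, -0.23 to 0.13 for Pik3r5 A_51_P173331, -0.45 to 0.22 for Pik3r5 A_52_P1093529, -0.0067 to 1.25 for Pik3cb A_51_P479914 and -0.16 to 0.15 for Pik3r3 A_52_P598827. In all, 9 of the 18 probes never changed sign. The causes were not tested. The authors' table was not run as an alternative, since its values matched those of the scanner throughout on 1 array alone. Probes near background, Pik3r3 above all, limit what these arrays can show.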
